A study of Drosophila pseudoobscura with 4 samples.

Results

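The microRNAs dps-mir-193, dps-mir-282, dps-mir-285 and dps-mir-316 are 4 of the 231 whose reads were counted in adults of *Drosophila pseudoobscura*. They were chosen by name, as microRNAs of the neo-X with an ortholog in *D. melanogaster* and with few reads, so their low level and their location are how they were picked and not results. The neo-X is the arm XR of the X chromosome, which was an autosome before it became joined to the X and matches an autosomal arm of *D. melanogaster*. Over the 4 libraries they had 52, 39, 173 and 124 reads, in the order above, and ranked 54th, 57th, 41st and 45th in reads among the 231, of which 131 had a read at all. No sharp limit separates them from their neighbors. On the conserved neo-X list, 4 other microRNAs had totals within the same range (dps-mir-190 and dps-mir-958 with 94 reads each, dps-mir-981 with 67 and dps-mir-315 with 118), the next above was dps-mir-927 with 241 and the next below dps-mir-263b with 15.

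The samples were 2 of males and 2 of females, all collected at 7 days of age and kept at 18 °C with 12 h of light a day. By the study's methods the females were unfertilized, the stock came from a wild collection, and each of the 2 sequencing runs held 1 male and 1 female sample. No genotype or treatment separates the groups. The study calls the 2 samples of each sex biological replicates. Nothing in the labels says whether they came from separate cultures, so the spread between them may still be technical. In samples of many tissues, fewer cells with a microRNA and fewer copies per cell cannot be told apart.

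MicroRNAs are short RNAs, cut from hairpin precursors, that lower the output of messenger RNAs with matching sites. Their targets are read mostly through the seed, a short stretch near the 5′ end, and microRNAs with a common seed are grouped in a family. By its seed, mir-285 belongs to the mir-29 family, which is shared with vertebrates, and in *D. melanogaster* it is known to act in glia of the blood-brain barrier on the Hippo growth pathway. The mir-193 family is also shared with vertebrates. In *D. melanogaster*, mir-282 is known to repress the adenylate cyclase gene rutabaga. No role is given here for mir-316.

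In the coordinates of the assembly UCI_Dpse_MV25, which the study's annotation uses, the precursors lie on chromosome X from 44461102 to 44461201 (dps-mir-285), from 45270046 to 45270147 (dps-mir-193), from 47067181 to 47067269 (dps-mir-316) and from 59646870 to 59646963 (dps-mir-282). They are separate loci, 0.809, 1.80 and 12.6 Mb apart in that order. None of the 4 lies within the span of a gene in the RefSeq table of that assembly, which gives spans and no exons, whereas 9 of the 20 other conserved microRNAs of the neo-X do. The nearest gene lies at a distance of 1247 bases from dps-mir-193, 1456 from dps-mir-285 and 1853 from dps-mir-316, where it is Cpr78E, a cuticle protein gene. For dps-mir-282 it is ckd, at 7648 bases. None of the 4 has another listed microRNA within 10 kb, a distance at which 3 of the 20 others have one. The closest neighbor of dps-mir-316 is 175 kb away, and that of dps-mir-282 is 1834 kb away. The counts are reads per precursor and do not separate its arms.

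Depth sets what can be seen of such microRNAs. The first run gave 5697 male and 7111 female reads, and the second 67076 and 42754. A floor of 3 reads corresponded to 597 and 493 CPM in the first run and to 43.4 and 54.6 CPM in the second, where CPM are read counts scaled to a common library size with TMM factors (trimmed mean of M-values). Counting intervals and floors cover counting error only. The reads carry no molecular identifiers, so copies of the same molecule may have been counted as separate reads, which these intervals do not allow for. The sex labels were checked with the ovary microRNAs dps-mir-318 and dps-mir-994, which had 0 to 5 reads in a male library and 48 to 3102 in a female library. The muscle microRNA dps-mir-133 had 3 to 181 reads in a library. It was at 1194 and 2617 CPM in males against 493 and 911 CPM in females, and was itself called sex-biased by the rule given below. The neural microRNA dps-mir-124 had 1 to 16 reads, and dps-mir-7 was at 0 in both libraries of the first run and at 10 and 8 in the second.

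The microRNA with the most reads of the 4 was dps-mir-285, although dps-mir-316 had 2 reads more in the second female library. It had 4 reads in the male and 5 in the female library of the first run, and 111 and 53 reads in those of the second. These were 796 and 1605 CPM in males against 821 and 965 CPM in females, so the male library of the second run stood above the other 3, and the male and female values overlapped. The male mean was 1201 ± 572 CPM and the female mean 893 ± 102 (SD, n = 2 samples of each sex). In edgeR's quasi-likelihood test with run and sex in the model, the log2 fold change of males against females was 0.55 (standard error 0.33, 95% interval -0.33 to 1.43), with an adjusted p of 0.392 over the 84 microRNAs tested. A microRNA was called sex-biased at a false discovery rate under 10% and a difference of at least 25%, which 13.1% of the 84 were. None of the 4 was called.

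For dps-mir-316 the male libraries held 1 and 66 reads, and the female ones 2 and 55. This gave 199 and 954 CPM in males and 328 and 1002 CPM in females. In the second run the male and female values lay within their counting error, and the 1 and 2 reads of the first run are under the floor of those libraries. Males averaged 577 ± 534 CPM and females 665 ± 476 (SD, n = 2 samples of each sex). The edgeR log2 fold change was -0.13 (standard error 0.29, 95% interval -0.90 to 0.65, edgeR adjusted p = 0.926), the narrowest interval among the 4.

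No read of dps-mir-193 was found in the first run, and 26 reads were found in each library of the second. The first run therefore sets only upper limits, 597 CPM in males and 493 in females at 3 reads. In the second run the level was 376 CPM in males and 474 in females, both below those limits. Its sex difference thus rests on the second run alone, and the fitted log2 fold change was -0.33 (standard error 0.39, 95% interval -1.47 to 0.81, edgeR adjusted p = 0.712). The standard error, interval and p rest on variation shared across microRNAs and measure no spread between replicates of dps-mir-193.

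The fewest reads of the 4 were those of dps-mir-282, whose male libraries held 0 and 21 reads and whose female libraries held 2 and 16. In the second run this was 304 CPM in males and 291 in females, nearly the same level. The 2 female reads of the first run corresponded to 328 CPM, which is under the floor of that library. The log2 fold change was -0.16 (standard error 0.57, 95% interval -1.67 to 1.35, edgeR adjusted p = 0.957), and a change of either direction by more than 2-fold lay within the interval.

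**Figure D1:**
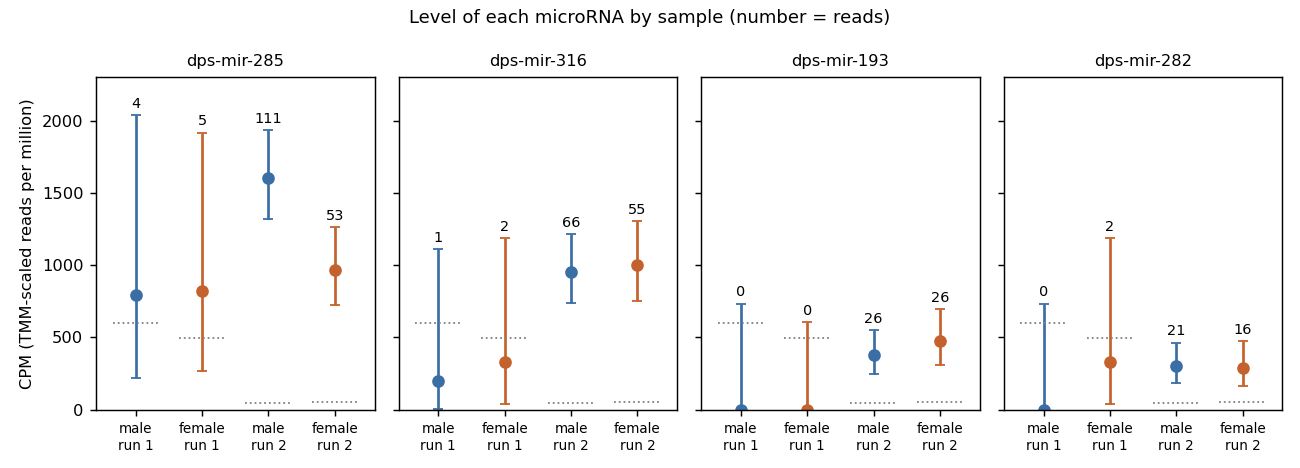
Level of each microRNA in CPM (TMM-scaled reads, vertical axis) in the male (blue) and female (orange) sample of each run. Bars are exact 95% Poisson intervals of the counting error, dotted lines mark the level of 3 reads in that library, and the number over each bar is the read count. In the first run, with 0 to 5 reads, the bars of dps-mir-285 span most of the axis and those of the others are shorter. In the second run only dps-mir-285 has male and female bars that do not overlap.

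The order of the levels was read in the second run. In its male library, dps-mir-285 (111 reads) stood above dps-mir-316 (66), and both above dps-mir-193 (26) and dps-mir-282 (21), which did not differ beyond their counting intervals. In the female library dps-mir-285 (53) and dps-mir-316 (55) did not differ beyond these intervals, and neither did dps-mir-193 (26) and dps-mir-282 (16). Precursor lengths ran only from 89 to 102 bases. Per 100 bases of precursor the reads of the 4 libraries together were 173 for dps-mir-285, 139 for dps-mir-316, 51.0 for dps-mir-193 and 41.5 for dps-mir-282, which is the same order as the read totals.

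Within the second run, the counting error alone allowed a closer comparison of its male and its female library, which is a comparison of 2 libraries and not of the sexes. The ratio of male to female CPM was 1.66 for dps-mir-285, with an exact 95% counting interval of 1.19 to 2.35. For dps-mir-282 it was 1.04 (0.518 to 2.14), for dps-mir-316 it was 0.953 (0.656 to 1.39) and for dps-mir-193 it was 0.794 (0.443 to 1.42). These ratios are on the TMM scale and depend on it. That of dps-mir-285 was 1.33 (0.954 to 1.89) with total counts, 1.22 (0.875 to 1.73) with DESeq2's size factors and 1.12 (0.804 to 1.59) with TMM factors taken only from the microRNAs left by filterByExpr, the expression filter of edgeR. With these last factors the ratio of dps-mir-193 was 0.537 (0.300 to 0.963) and that of dps-mir-316 was 0.644 (0.444 to 0.939), both below 1 by more than the counting error, while that of dps-mir-282 was 0.705 (0.350 to 1.44). With total counts or DESeq2's size factors the intervals of these 3 included 1. In the first run the ratio of dps-mir-285 was 0.970 (0.192 to 4.51) and that of dps-mir-316 was 0.606 (0.0103 to 11.6), intervals too wide to give a direction.

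**Figure D2:**
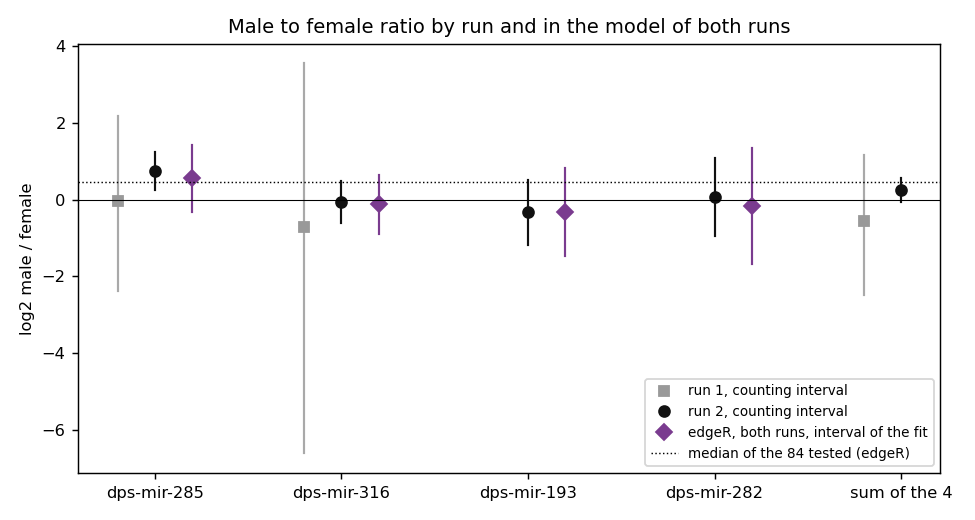
Log2 ratio of male to female levels (vertical axis) for each microRNA and for the sum of the 4, in the first run (grey squares) and the second (black circles) with exact 95% counting intervals, and the edgeR log2 fold change of both runs with the 95% interval of the fit (violet diamonds). The dotted line is the edgeR median of the 84 tested, 0.46, and ratios of the first run with 0 reads in a sex are not drawn. All 4 edgeR intervals include 0.

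Taken as a sum, the 4 microRNAs gave 5 male and 9 female reads at the first sequencing, and 224 and 150 at the second. The sum was 0.0878% of the male library (exact 95% interval 0.0285 to 0.205) and 0.127% of the female library (0.0579 to 0.240) in the first run. In the second run it was 0.334% (0.292 to 0.381) and 0.351% (0.297 to 0.412). By library share the sexes thus overlapped within each run, and the runs did not overlap within either sex. In TMM-scaled CPM, for which no interval of the sum was computed, males had 995 and 3239 and females 1478 and 2732, first run before second. On the TMM scale the male to female ratio of the sum was 0.673 in the first run (counting interval 0.177 to 2.24) and 1.19 in the second (0.960 to 1.47). With total counts the ratio of the second run was 0.952 (0.771 to 1.18), with DESeq2's size factors 0.873 (0.707 to 1.08) and with TMM factors from the microRNAs left by filterByExpr 0.802 (0.649 to 0.993). Its side of 1 thus changes with the scaling.

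The make-up of the sum does not depend on the scaling. In the second run, dps-mir-285 gave 49.6% of the summed reads in the male library (exact 95% interval 42.8 to 56.3) and 35.3% in the female library (27.7 to 43.5). The share of dps-mir-316 was 29.5% in the male and 36.7% in the female library, that of dps-mir-193 was 11.6% and 17.3%, and that of dps-mir-282 was 9.38% and 10.7%. For these 3 the male and female intervals overlapped broadly, whereas those of dps-mir-285 overlapped only from 42.8% to 43.5%. In the first run 4 of the 5 male reads and 5 of the 9 female reads were of dps-mir-285. Without dps-mir-285, the sum of the other 3 in the second run was 113 male and 97 female reads, a ratio of 0.925 on the TMM scale (counting interval 0.699 to 1.23). Unlike the shares, this ratio depends on the scaling, and it was 0.743 (0.561 to 0.984) with total counts, 0.681 (0.515 to 0.903) with DESeq2's size factors and 0.626 (0.473 to 0.829) with TMM factors from the microRNAs left by filterByExpr, all on the female side of 1.

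**Figure D3:**
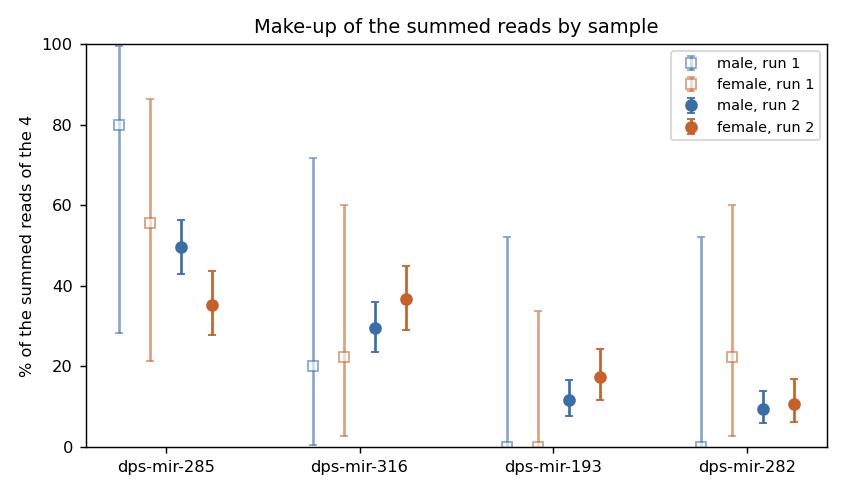
Share of each microRNA in the summed reads of the 4 (percent, vertical axis) in each sample, with exact 95% binomial intervals of the counting error. Open squares are the first run (5 male and 9 female reads) and filled circles the second (224 and 150). In the second run dps-mir-285 had 49.6% of the male and 35.3% of the female reads.

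By library share, the difference of the sum between runs was larger than that between sexes. At the share of the second run, the first male library would have held 19.0 reads of the 4 and had 5 (exact 95% Poisson interval 1.62 to 11.7), and the first female library would have held 24.9 and had 9 (4.12 to 17.1). The share of the sum rose between runs by a factor of 3.81 in males (counting interval 1.61 to 11.8) and of 2.77 in females (1.42 to 6.18). On the TMM scale the rise of the sum was smaller in both sexes, and whether it exceeded the counting error there was not tested. Each of the 4 fell short in the first run in both sexes, as did 39 of the other 80 tested, before counting error is considered. For dps-mir-316, 5.61 and 9.15 reads would have been found in the male and the female library, where 1 and 2 were. In males the share factor of dps-mir-316 had a counting interval of 0.972 to 225, which includes 1. For dps-mir-285 the values were 9.43 and 8.82, with 4 and 5 found (Poisson intervals 1.09 to 10.2 and 1.62 to 11.7). Those of dps-mir-193 were 2.21 and 4.32, where none was found (0 to 3.69 in each). Those of dps-mir-282 were 1.78 and 2.66, with 0 and 2 found (0 to 3.69 and 0.242 to 7.22). The shortfalls of dps-mir-285 and dps-mir-282, and that of dps-mir-193 in males, thus lay within the counting error.

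In the edgeR model, the log2 fold change of the second run against the first was 1.85 for dps-mir-316 (standard error 0.44, unadjusted p = 0.00985, adjusted p = 0.117 over the 84), 0.62 for dps-mir-285 (adjusted p = 0.414) and 0.74 for dps-mir-282 (adjusted p = 0.687). For dps-mir-193 no fold is given, since it had no read in the first run and, on the TMM scale, its levels of the second are under the floor of the first. By library share its second-run level was under the first-run floor in males (0.0388% against 0.0527%) and above it in females (0.0608% against 0.0422%). The calls of dps-mir-193 given below rest on a first run without a read of it. None of the 4 passed the call thresholds for the run, and 1.19% of the 84 did. This contrast was added after the values were seen and depends on the scaling. With total counts, 40.5% of the 84 passed, among them dps-mir-193 (adjusted p = 0.00316), dps-mir-316 (adjusted p = 0.00314) and dps-mir-285 (adjusted p = 0.0930). With DESeq2's size factors in edgeR 25.0% of the 84 passed, with TMM factors from the filtered microRNAs 23.8%, with DESeq2 31.0% (17 had no adjusted p) and with limma-voom 13.1%. Over these 5 alternatives dps-mir-193 passed in 4, dps-mir-316 in 3, dps-mir-285 in 1 and dps-mir-282 in 0. The median of the 84 was 0.15 on the TMM scale, and that of the 15 other conserved neo-X microRNAs was -0.038.

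How the 4 stood in sex bias among the other microRNAs of the neo-X was then described. Of the 24 conserved neo-X microRNAs in the study's annotation, 19 were tested and none was called. The 15 that are not among the 4 had log2 fold changes from -0.14 to 1.66, with a median of 0.60, and 14 of them were above 0. The 4 had a median of -0.14, and dps-mir-285 was the single one above 0. On this scale 0 is not the middle, since the median of all 84 was 0.46. Among the 15, values of -0.14, 0.026, 0.080, 0.086, 0.15, 0.17 and 0.36 lay below that median and the others above it. Of the 4, 3 lay below it. The highest values among the 15, 1.66 and 1.56, came from microRNAs with 15 and 5 reads. Ranked from the most female-biased among all 84, dps-mir-193 was 14th, dps-mir-282 20th, dps-mir-316 24th and dps-mir-285 45th. The same microRNAs and libraries underlie these ranks, so they carry the error of the fits above. Among the 4 others within their range of reads, the log2 fold changes were 0.82 for dps-mir-315, 0.74 for dps-mir-981, 0.17 for dps-mir-190 and -0.14 for dps-mir-958, none of them called. The position of the 4 within the list is a description and was not tested.

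**Figure D4:**
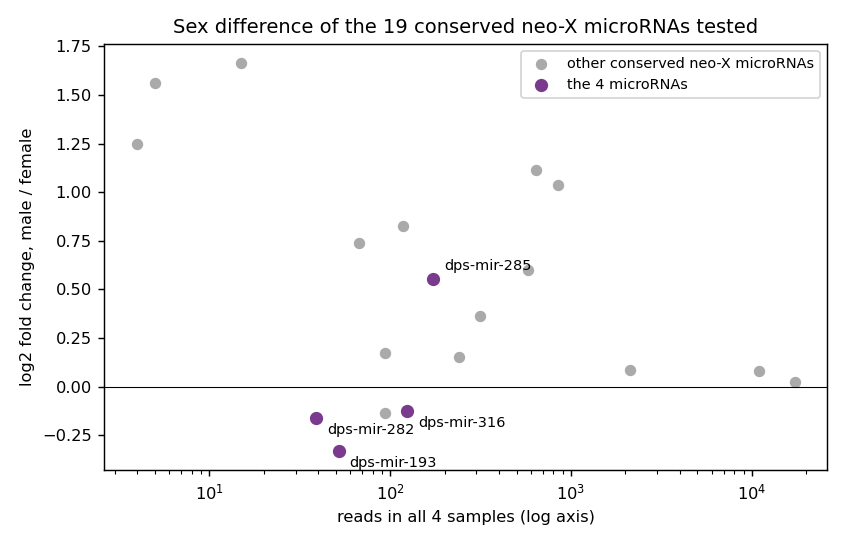
Log2 fold change of males against females from edgeR (vertical axis) against the reads in all 4 samples (horizontal log axis) for the 19 conserved neo-X microRNAs tested. The 4 microRNAs are violet and the 15 others grey. Of the 4 values under 0, -0.33, -0.16 and -0.13 belong to dps-mir-193, dps-mir-282 and dps-mir-316, and -0.14 to dps-mir-958.

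The scaling shifts all fold changes together, and the median of those tested was 0.46 with TMM and 0.014 when the TMM factors were taken from the microRNAs left by filterByExpr. Relative to the median of the same fit, dps-mir-285 was at 0.088, dps-mir-316 at -0.59, dps-mir-282 at -0.62 and dps-mir-193 at -0.79. Over all the models, scalings and filters tried with the 4 libraries, the value relative to the median ran from -0.086 to 0.088 for dps-mir-285, from -0.73 to -0.54 for dps-mir-316, from -0.86 to -0.62 for dps-mir-282 and from -0.93 to -0.59 for dps-mir-193. The last 2 were dropped by filterByExpr and have no value under it. The sexes of dps-mir-285 thus differed about as much as those of the median microRNA in each of these fits, while the other 3 lay on the female side of it. This covers fits of all 4 libraries only, since no median was taken with a library left out, and the values that follow are set against 0. Without the first male library, the log2 CPM difference, males minus females, turned to 1.29 for dps-mir-193 and to 0.66 for dps-mir-316. Without the second female library it turned to 1.44 and 0.40. For dps-mir-282 it stayed below 0 whichever library was left out, from -2.64 to -0.023. Leaving out a library breaks a pair, so these differences mix run with sex, and dps-mir-193 had no read in the first run. In edgeR with sex only, the log2 fold changes of dps-mir-193 and dps-mir-316 were -0.27 and -0.054 without the first male library. They were 5.93 and 1.05 without the second female library, in the same order. In the TMM fit the median of 0.46 was inside the 95% interval of each of the 4.

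**Figure D5:**
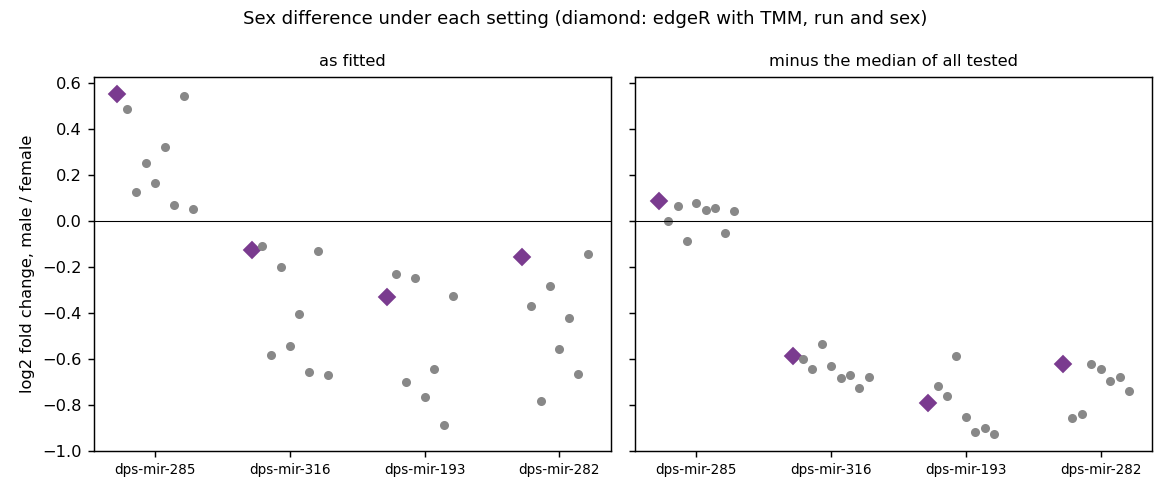
Log2 fold change of males against females (vertical axis) for each microRNA under each model, scaling and filter, as fitted (left) and after subtracting the median of all microRNAs tested in that fit (right). Violet diamonds are edgeR with TMM, run and sex, and grey points the alternatives. The fitted values of dps-mir-285 spread from 0.050 to 0.55, and those relative to the median from -0.086 to 0.088.

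The microRNAs with the most similar profile were found by the Euclidean distance between log2 CPM values over the 4 libraries, each centered on its own mean. For dps-mir-316 the nearest was dps-mir-252, at a distance of 0.137, with 4 and 255 male and 8 and 189 female reads. The second nearest was dps-mir-7 (0.423), with 0 and 10 male and 0 and 8 female reads. For dps-mir-285 they were dps-mir-33 (0.334), with 43 and 1240 male and 61 and 771 female reads, and dps-mir-281-1 (0.350). These distances compare with a median over all others of 2.15 for dps-mir-316 and 1.61 for dps-mir-285. For dps-mir-193 the nearest were dps-mir-31a (0.807), with 10 and 1220 male and 21 and 801 female reads, and dps-mir-2569 (1.12). The latter had 0 and 10 reads in each sex. For dps-mir-282 they were dps-mir-2568a (0.757), with 0 and 20 male and 1 and 8 female reads, and dps-mir-927 (0.851). In a library with 0 reads the log2 CPM is set by the small count added before the log, so such matches rest partly on it. Both dps-mir-33 and dps-mir-927 are also on the neo-X. The profiles hold only 4 libraries of unequal depth, and nothing is drawn from them on function.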

How the data were processed

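Adapter removal (Cutadapt), mapping to the genome (HISAT2) and counting per annotated precursor (featureCounts) were done by the authors, who left out precursors with identical copies elsewhere in the assembly. The deposited values are raw read counts, not normalized, for 231 microRNAs in each of 2 male and 2 female samples. A blank last line in each file (1 row, 0% of reads) was left out. Positions, the neo-X arm and orthologs are those of the study's annotation, and gene spans those of RefSeq. The sequences of these microRNAs were not used here.

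Counts were tested with edgeR 4.0.16 in R 4.3.3 (TMM on the microRNAs tested, glmQLFit, glmQLFTest, Benjamini-Hochberg), with run and sex as in the study's model. The pairing by run comes from the study's methods, and the run changes of both sexes had a Pearson r of 0.567 across the 84 tested microRNAs, which are not independent replicates. The base mean from DESeq2 had to reach 1. The approximate standard error is the absolute log2 fold change over the square root of F. Log2 CPM used a prior count of 2. DESeq2 1.42.0 with a local fit and voom of limma 3.58.1 were alternatives, beside no block, other scalings and filters, and leaving out each sample. Ratios within a run have exact conditional binomial intervals (SciPy 1.17.1). The fit was tested on simulated data. The microRNAs named are the 4, the 2 nearest in profile to each, and the conserved neo-X microRNAs within or next to their range of reads. The 4 members, the lists and the alternatives were chosen with earlier results of these data known. Of 6 tissue markers listed, dps-mir-1 was not analysed here.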

Additional observations from a re-analysis of the deposited data

How the results depend on the processing

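Across the alternatives with all 4 samples, the log2 fold changes ran from -0.89 to -0.23 for dps-mir-193, from -0.78 to -0.14 for dps-mir-282, from 0.050 to 0.54 for dps-mir-285 and from -0.67 to -0.11 for dps-mir-316, and each kept its sign and its side of the thresholds. Adjusted p-values were between 0.177 and 0.994. With no replicate block they were -0.23, -0.37, 0.49 and -0.11, in that order, and 9 microRNAs were called in place of 11; the block changed no call of the 4. DESeq2 called 17 and limma-voom 6.

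Leaving out a sample breaks a pair, so that these values come from log2 CPM, with no test, and from edgeR with sex only, a fit added after seeing the data that assumes the lone sample to vary like the other sex. They ran from -5.90 to 5.93 for dps-mir-193, from -5.76 to -0.023 for dps-mir-282, from -0.20 to 0.81 for dps-mir-285 and from -1.88 to 1.05 for dps-mir-316, none called, and 2 to 6 microRNAs were called in all. The sign turned for dps-mir-193 without the first male (1.29 on log2 CPM) or the second female sample (1.44, and 5.93 in edgeR), for dps-mir-316 without the same samples (0.66, and 0.40 and 1.05), and for dps-mir-285 without the second male (-0.15 and -0.19) or the first female sample (-0.20 in edgeR). Without its sample of the second run, a sex held only 0 reads of dps-mir-193, and the values of -5.90 and 5.93 come from these fits. The cause of the sign changes was not tested. The log2 ratio of the summed reads in the second run was 0.25 with TMM, -0.20 with DESeq2's size factors, -0.071 with total counts, -0.32 with TMM from the microRNAs kept by filterByExpr and -0.11 without dps-mir-285. In the first run it stayed between -1.72 and -0.53. Depth limits these values, as 6 of the 8 counts in the first run were under 3 reads.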
